A study of Mus musculus with 16 samples.

Results

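A group of 10 genes was followed in BCR-ABL1p185+ leukemic pro-B cell lines, out of 50686 genes in the count files. The group covers the common beta chain, the common gamma chain, partner receptor chains of either, and *Crlf2*, a receptor chain for the cytokine TSLP. Its genes are *Csf2rb*, *Csf2rb2*, *Csf2ra*, *Il3ra*, *Il5ra*, *Il2rg*, *Il7r*, *Il2rb*, *Il4ra* and *Crlf2*. They were chosen by receptor family and by their measured expression, in that *Csf2rb* and *Csf2rb2* were known to be lower with Senexin B in these libraries. The Senexin B values of the 10 genes are therefore given as a description, with no p-value, and counts of those past a threshold are printed beside the share of all genes with nothing read from them. The comparison of the genotypes was tested. Of the 10 genes, 9 passed the filter on low counts in every comparison. *Il2rb* did not, with 0 counts in 12 of the 16 libraries and at most 2 in any other, below the floor of 3 counts, which corresponded to 0.161 to 0.246 CPM, the counts scaled for the size of the library.

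The lines were made from bone marrow of C57BL/6N mice by infection with a retrovirus that carried BCR-ABL1p185 and GFP, so every group expressed the same oncogene. The control lines carried loxP-flanked *Cdk8* alleles without Cre (*Cdk8* fl/fl, labelled as wildtype). The knockout lines had lost *Cdk8* through a Cre recombinase driven by the blood-cell promoter *Vav* (*Cdk8* Δ/Δ *Vav*-Cre). Each genotype had 4 individually derived lines, and each line was sequenced once after 48 h in 0.01% DMSO and once after 48 h in 1 µM Senexin B, an inhibitor of the kinases CDK8 and CDK19. Lines carry the numbers 1 to 4 within a genotype, and line 1 of the controls is a different line from line 1 of the knockouts.

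Cytokine receptors of this group have no kinase of their own and signal through Janus kinases bound to their tails, which phosphorylate STAT proteins, above all STAT5. Receptors for IL-3, IL-5 and GM-CSF each pair a private alpha chain with the common beta chain. The mouse is unusual in having a pair of neighbouring beta chain genes, *Csf2rb*, which serves all of these cytokines, and *Csf2rb2*, whose product acts only with the IL-3 receptor alpha chain. The common gamma chain, encoded by *Il2rg*, pairs with the IL-7, IL-4 and IL-2 receptor chains, among others. Signals from the IL-7 receptor are needed for normal mouse pro-B cells, and BCR-ABL1 activates STAT5 without a cytokine.

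In the GRCm38 genome *Csf2rb2* lies on the minus strand at chr15:78282517-78305603 and *Csf2rb* on the plus strand at chr15:78325990-78351000, so that the pair point away from each other across 20386 bases. *Il2rb* (chr15:78480553-78495066) and *Il7r* (chr15:9506161-9529876) are on the same chromosome. The other genes lie apart, *Csf2ra* at chr19:61224402-61228418, *Il3ra* at chr14:14346495-14355490, *Il5ra* at chr6:106710357-106749037, *Il4ra* at chr7:125552120-125579474, *Crlf2* at chr5:109554709-109558993 and *Il2rg* at chrX:101264378-101268255. RefSeq promoter windows on GRCm38.p6 matched 8 of the 10 genes, without *Csf2rb* and *Il2rb*. The 250 bases before the start are printed for *Csf2rb2*, the gene with the largest difference with Senexin B, and for *Il7r*, the gene whose lines moved apart most. Capitals mark matches to the STAT motif TTCNNNGAA or to the ETS motif GGAAGT on either strand, and both windows read 5′ to 3′ on the minus strand, at chr15:78305722-78305971 and chr15:9529877-9530126.
Csf2rb2: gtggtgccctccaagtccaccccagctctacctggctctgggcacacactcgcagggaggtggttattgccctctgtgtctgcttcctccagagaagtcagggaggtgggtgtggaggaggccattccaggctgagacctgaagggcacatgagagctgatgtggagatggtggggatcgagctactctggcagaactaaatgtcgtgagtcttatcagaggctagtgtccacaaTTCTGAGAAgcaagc
Il7r: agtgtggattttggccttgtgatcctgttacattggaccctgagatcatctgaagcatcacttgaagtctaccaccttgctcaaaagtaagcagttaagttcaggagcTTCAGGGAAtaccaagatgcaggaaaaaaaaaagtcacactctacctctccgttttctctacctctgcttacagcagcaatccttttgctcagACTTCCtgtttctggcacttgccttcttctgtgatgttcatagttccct

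Among the 8 promoters with a sequence, the STAT motif was found in *Csf2rb2* and *Il7r*, against 7.02% of all 32851 promoter windows of the same length. The ETS motif was found in *Il7r* and *Il3ra*, against 19.7% of all windows. A forkhead motif (GTAAACA, 3.17% of all windows) was in none of the 8, and an AP-1 motif (TGANTCA, 6.75%) was in *Il5ra*. The bases just after the window were found in a GENCODE M21 transcript of the gene for *Csf2rb2*, but not for *Il7r* or *Il3ra*. The position of the start is therefore uncertain for *Il7r* and *Il3ra*, which hold the ETS matches. These matches describe the letters of the windows, and binding was not measured.

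Sequencing gave 13145876 to 18349425 counts per library. *Cdk8* itself was at 35.3, 52.1, 47.1 and 42.8 CPM in knockout lines 1 to 4 in DMSO and at 68.7, 61.8, 63.3 and 65.8 CPM in the control lines, a partial difference without overlap, beside 3.14% of all genes (log2 fold change -0.55, standard error 0.14, adjusted p = 0.897 by edgeR). With Senexin B the genotypes overlapped, at 41.2 to 61.7 CPM in the knockout lines and 55.2 to 89.4 CPM in the control lines. Counts of the whole gene do not show whether the flanked exons are present. All 9 pro-B markers were detected, with summed levels of 5265 to 7945 CPM over the libraries. Control line 1 stood apart from the other control lines in its Senexin B difference of *Il7r* and of other genes. For *Il7r* it was at -1.20 on the log2(CPM + 1) scale, against 1.54 to 1.64 in the others. Knockout line 1 was the lowest of a graded spread, at -1.16, beside -0.08, 0.29 and 1.10 in knockout lines 2, 3 and 4. With the line as a block, 45 of 12989 genes (0.346%) were called between Senexin B and DMSO in the control lines, and 538 of 12976 (4.15%) when line 1 was left out, a choice made after seeing the data. Values without line 1 are given beside some of the results, and since they follow that choice they support nothing.

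Read per length of transcript, the receptor chains covered a wide span of levels in the control lines in DMSO. The common gamma chain *Il2rg* was highest at 181 ± 67.5 TPM (counts per length of transcript, scaled so that each library has the same sum; SD, n = 4 lines). It was followed by *Il7r* at 148 ± 79.8 and *Csf2rb* at 105 ± 29.5. These ranges overlapped from each gene to the next. *Crlf2*, the receptor chain for the epithelial cytokine TSLP, was at 62.6 ± 13.9 TPM. The alpha chain *Csf2ra* was at 38.6 ± 7.65, *Il3ra* at 25.3 ± 12.6, the second beta chain *Csf2rb2* at 22.03 ± 5.56 and *Il4ra* at 14.98 ± 3.96. Each of these again overlapped with its neighbour in the order. *Il5ra*, at 4.19 ± 2.78 TPM, was the only detected chain whose range lay clear of the gene above it. With Senexin B in the same lines *Csf2rb2* moved from the seventh to the eighth place, at 4.40 ± 1.20 TPM, below and clear of *Il3ra* and overlapping with *Il5ra*.

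Both common beta chain genes were lower with Senexin B than with DMSO, *Csf2rb2* by the larger factor and in all 8 lines, beside 2.59% of all genes that were lower in all of them. In the control lines *Csf2rb2* was at 28.7, 41.6, 23.8 and 40.6 CPM in DMSO (lines 1 to 4) and at 5.26, 8.02, 6.37 and 10.3 CPM with Senexin B. The groups did not overlap, beside 2.1% of 14164 genes without overlap there, and the Senexin B level of each line was lower by a factor of between 3.73 and 5.45. In the knockout lines the gene was at 27.8, 36.65, 75.8 and 48.4 CPM in DMSO and at 5.86, 21.7, 23.8 and 9.75 CPM with Senexin B. Here too the groups did not overlap, beside 1.6% of all genes, and with the inhibitor lines 2 and 3 were above lines 1 and 4. The mean difference within a line was -2.03 ± 0.25 on the log2(CPM + 1) scale in the controls and -1.66 ± 0.66 in the knockouts (SD, n = 4 lines each).

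**Figure D1:**
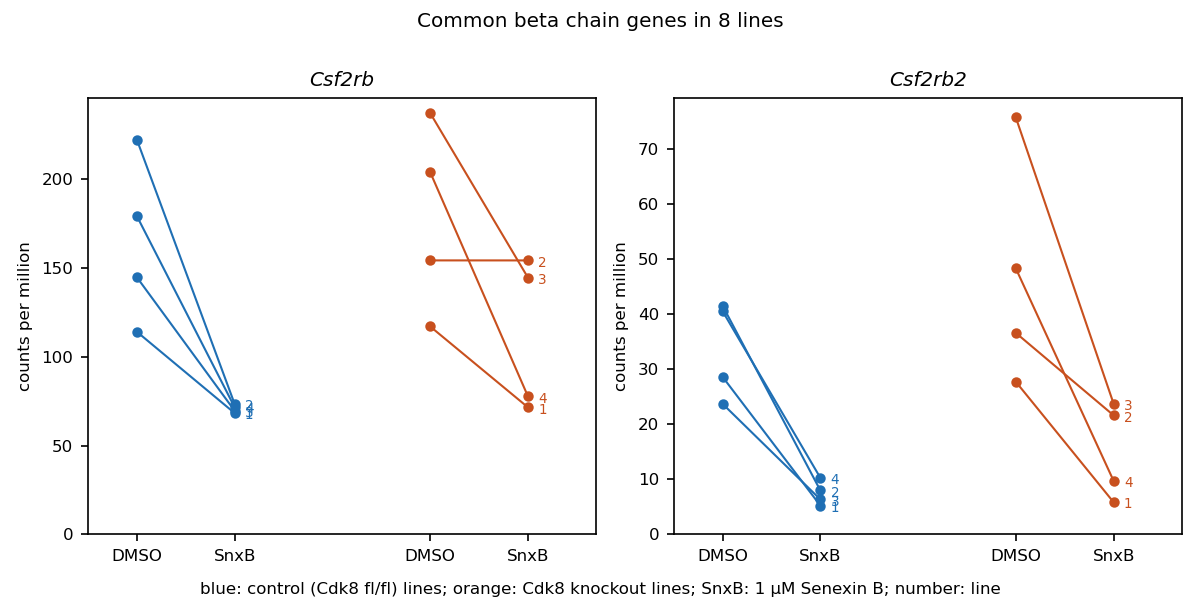
CPM of *Csf2rb* (left) and *Csf2rb2* (right) on linear axes in DMSO and in 1 µM Senexin B (SnxB); each line segment joins the 2 libraries of 1 cell line, blue for the 4 control lines and orange for the 4 knockout lines, with the line number at the right end. All segments of *Csf2rb2* slope down, and so do those of *Csf2rb* except knockout line 2, which stayed at 154 CPM.

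*Csf2rb* had a higher level and a smaller difference. In the control lines it was at 114, 222, 145 and 179 CPM in DMSO and at 68.3, 73.5, 69.7 and 71.7 CPM with Senexin B. The control lines thus spread over an SD of 46.5 CPM in DMSO and of 2.26 CPM with the inhibitor. In the knockout lines it was at 117, 154, 237 and 204 CPM in DMSO and at 71.6, 154, 145 and 77.8 CPM with Senexin B. Knockout line 2 did not move, and the other lines were lower by a factor of between 1.64 and 2.62. The mean difference within a line was -1.17 ± 0.36 in the controls and -0.70 ± 0.56 in the knockouts on the log2(CPM + 1) scale (SD, n = 4 lines each).

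In the edgeR fit without a block, the log2 fold change of *Csf2rb2* was -2.16 (standard error 0.29) in the control lines, -1.62 (0.50) in the knockout lines and -1.90 (0.30) over all lines. For *Csf2rb* the same fits gave -1.21 (0.20), -0.67 (0.32) and -0.95 (0.21). Within the control lines 0 of the 9 genes passed an adjusted p of 0.05 with a fold above 2, as did 0% of all genes, against 2 genes at an unadjusted p under 0.05 (3.8% of all genes) and 2 called by DESeq2 (0.102% of the genes to which it gave an adjusted p). Without the filter on low counts 1 was called, beside 0.011% of all genes. With the line as a block, *Csf2rb* and *Csf2rb2* passed these limits in the control lines, beside 0.185% of all genes called in the lower direction. Over all lines *Csf2rb2* passed them with the block, beside 0.374% of all genes called in the lower direction, and 0 genes did without it, against 2 at an unadjusted p under 0.05 (4.86% of all genes) and 1 called by DESeq2 (0.097%). Without line 1 and with the block 3 were called over all lines, beside 2.57% of all genes. In the knockout lines 0 genes passed with or without the block, beside 0.0527% of all genes with it, against 2 of the 9 at an unadjusted p under 0.05 with the block (10.3% of all genes) and 1 without (1.83%), and 0 called by DESeq2 (0%). These counts come from the contrast that the choice of genes used, and nothing is read from them.

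The difference was unequal between the paired genes. *Csf2rb2* supplied 20.1%, 15.8%, 14.1% and 18.5% of the summed counts of both genes in control lines 1 to 4 in DMSO, and 7.14%, 9.84%, 8.38% and 12.6% with Senexin B. In the knockout lines the shares were 19.2%, 19.2%, 24.2% and 19.2% in DMSO and 7.57%, 12.3%, 14.1% and 11.1% with Senexin B. The share was lower with the inhibitor in all 8 lines. The 95% Wilson interval of a single share was at its widest 10.7% to 14.7%, for the 134 counts of *Csf2rb2* in control line 4 with Senexin B, and covers counting error only. Between the genotypes in DMSO the mean share differed by 3.33 percentage points, 20.4 ± 2.52% in the knockout lines against 17.1 ± 2.68% in the control lines, and a two-sided exact permutation test over the lines gave p = 0.20 (the smallest it can give is 0.0286).

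The paired genes are similar in sequence, which bears on how reads are divided between them. Their reference transcripts (GENCODE M21) were identical at 90.9% of 4657 aligned bases. Of the 50-base windows of the *Csf2rb2* transcript, as long as the reads, 19.0% (892 of 4691) also occur in *Csf2rb*. Reads from such windows have more than 1 position and, with the counting options given in the file headers, were not counted, so the counts of either gene come from the sequence that tells them apart. With the counts of both genes summed into 1 feature, the log2 fold change with Senexin B was -1.33 (standard error 0.20) in the control lines and -0.82 (0.35) in the knockout lines. A microRNA gene lies within each of them on the same strand, *Mir7676-1* in *Csf2rb2* and *Mir7676-2* in *Csf2rb*.

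By genotype, neither beta chain gene passed the test. In DMSO *Csf2rb* had a log2 fold change of 0.11 (knockout over control, standard error 0.27, adjusted p = 0.969) and *Csf2rb2* one of 0.49 (0.32, adjusted p = 0.908), and the lines of the genotypes overlapped for both. With Senexin B the estimates were 0.66 (0.27) for *Csf2rb*, which had an unadjusted p of 0.0349, and 1.03 (0.46) for *Csf2rb2*, both with an adjusted p of 1.00 by edgeR. The higher knockout means with the inhibitor, 112 ± 43.4 against 70.8 ± 2.26 CPM for *Csf2rb* and 15.3 ± 8.80 against 7.49 ± 2.20 CPM for *Csf2rb2*, came from lines 2 and 3 in particular. Whether the Senexin B difference was unlike in the genotypes is described by the interaction, 0.55 (0.39) for *Csf2rb* and 0.54 (0.59) for *Csf2rb2* on the log2 scale. With the line as a block it was 0.48 (0.28) and 0.43 (0.33), and without line 1 as well 0.63 (0.31) and 0.51 (0.34).

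**Figure D2:**
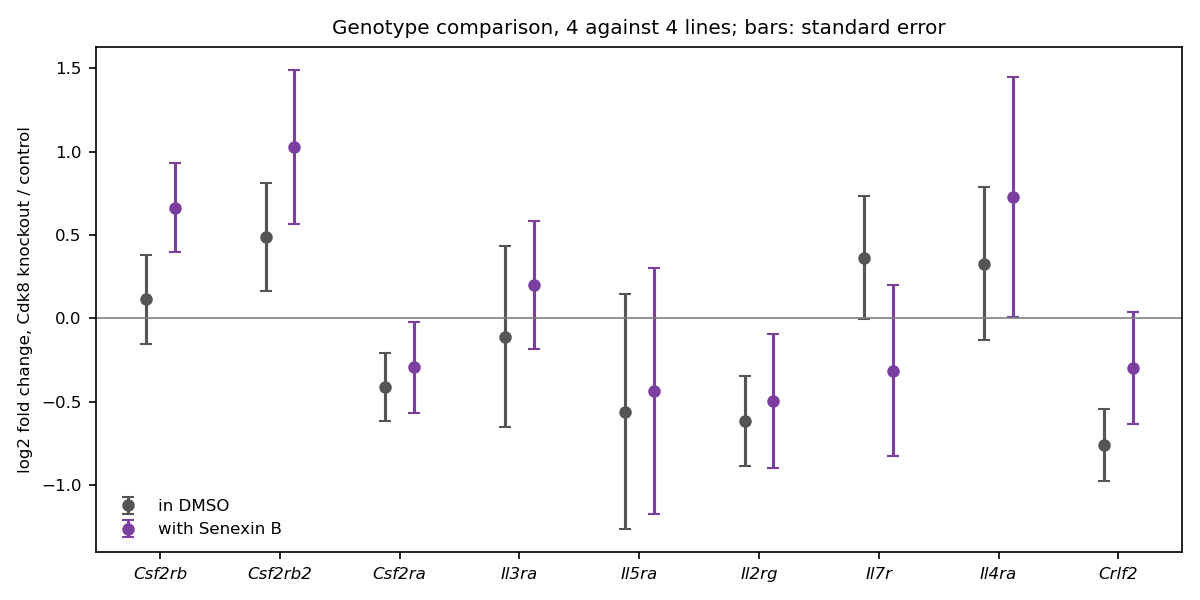
Log2 fold change of knockout over control lines for the 9 tested receptor genes in DMSO (grey) and with Senexin B (purple), from edgeR on 4 against 4 lines; bars are standard errors. *Csf2ra*, *Il5ra*, *Il2rg* and *Crlf2* lie below 0 and *Csf2rb*, *Csf2rb2* and *Il4ra* above 0 in both conditions, and none passed the test.

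Markers of other cell types that can express the common beta chain were read in the same libraries. Of 9 myeloid markers, *Elane*, *S100a8* and *S100a9* were at 0 in all libraries. The summed myeloid level was 0.504 to 7.98 CPM in the control lines in DMSO, 0.648 to 6.16 with Senexin B, 0.699 to 25.1 in the knockout lines in DMSO and 0.789 to 7.93 with Senexin B, with *Lyz2* the highest marker. Of 6 mast cell or basophil markers, the high-affinity IgE receptor chains *Fcer1a* and *Ms4a2* were at 0 in all libraries. The summed level of these 6 was 0 to 2.52 and 0.144 to 7.94 CPM in the control lines in DMSO and with Senexin B, and 0 to 72.4 and 0.668 to 132 CPM in the knockout lines, with *Kit* the highest marker, at up to 132 CPM in knockout line 2. Of that highest sum, 132.1 CPM, *Kit* alone made up 131.9 CPM, so it is not a reading of the other markers. Of 4 plasmacytoid dendritic cell markers none was at 0 in all libraries, and their summed level was 5.88 to 23.1 and 9.01 to 35.02 CPM in the control lines and 13.6 to 26.2 and 16.9 to 27.5 CPM in the knockout lines, with *Bst2* the highest. Outside these cell types, the erythroid markers summed to 2.76 to 264 CPM over the libraries, with *Hbb-bt* the highest. T cell and stromal markers summed to at most 2.20 CPM. The part of any of these cell types in the receptor values was not tested. In RNA from a whole culture, fewer cells of a kind and less RNA per cell cannot be told apart.

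The private alpha chains that pair with the common beta chain did not show the same difference in every line. *Csf2ra*, the GM-CSF receptor alpha chain, was at 17.7 to 27.4 CPM in the control lines in DMSO and at 19.8 to 38.7 CPM with Senexin B. In the knockout lines it was at 12.96 to 21.4 and 16.98 to 27.3 CPM. The ranges overlapped, and the gene was lower with Senexin B in 3 of the 8 lines and higher in 5. *Il3ra*, the IL-3 receptor alpha chain, was lower in all 4 control lines, by -0.35 ± 0.23 on the log2(CPM + 1) scale, beside 9.12% of the 14164 genes that were lower in all of them. In the knockout lines it was lower in 2 and higher in 2. Its level divided the lines more than the treatment did, from 5.29 to 19.5 CPM among the controls in DMSO and from 4.38 to 18.6 CPM among the knockouts. *Il5ra*, the IL-5 receptor alpha chain, was low throughout, at 0.627 to 8.96 CPM, and was lower with Senexin B in 6 of the 8 lines. Control line 4 and knockout line 4 had 9 to 23 counts of it per library, so differences there were within counting error. With Senexin B, control line 2 had 19 counts and knockout line 1 had 24.

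The common gamma chain *Il2rg* was at 96.4, 217, 136 and 119 CPM in control lines 1 to 4 in DMSO and at 86.3, 233, 108 and 80.3 CPM with Senexin B. In the knockout lines it was at 123, 80.4, 96.0 and 71.7 CPM in DMSO and at 120, 49.1, 104 and 85.3 CPM with the inhibitor. Control line 2 was the highest in both conditions, and the ranges of treatment and of genotype overlapped. The genotype difference in DMSO was -0.61 on the log2 scale (standard error 0.27, adjusted p = 0.897 by edgeR). Across the 16 libraries *Il2rg* and *Csf2ra* moved together (Pearson r = 0.81 of log2(CPM + 1)), where both libraries of a line and the 4 lines of a genotype share their source. An overlapping gene model on the same strand, *Gm20489*, shares exonic bases with *Il2rg*, and reads over shared bases are not counted for either.

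*Il7r*, the IL-7 receptor alpha chain and a marker of early B cells, was the gene whose lines differed most in direction. In control lines 2, 3 and 4 it was at 108, 89.6 and 149 CPM in DMSO and higher, at 338, 262 and 453 CPM, with Senexin B. In control line 1 it was at 286 CPM in DMSO and lower, at 124 CPM, with Senexin B. Control line 1 thus had the highest level of its group in DMSO and the lowest with the inhibitor. In the knockout lines it went from 176 to 78.3 in line 1, from 200 to 190 in line 2, from 282 to 346 in line 3 and from 154 to 333 CPM in line 4. Line 1 of the knockouts moved down as line 1 of the controls did. These differences come from single libraries of each line, so the spread of repeat cultures is unknown.

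With all lines, the log2 fold change of *Il7r* with Senexin B was 0.90 (standard error 0.46) in the control lines and 0.22 (0.44) in the knockout lines. With the line as a block and line 1 left out it was 1.60 (0.16) and 0.44 (0.21), and the interaction was -1.16 (0.27). *Csf2rb2* differed in this from *Il7r*. Its difference in line 1 was -2.25 on the log2(CPM + 1) scale in the controls, beside -2.24 in line 2, and -2.07 in the knockouts, between lines 3 and 4, so line 1 had the direction of the other lines. Without line 1 and with the block, *Csf2rb2* was at -2.08 (0.18) in the control lines and -1.56 (0.27) in the knockout lines, and *Csf2rb* at -1.33 (0.17) and -0.70 (0.24). By genotype *Il7r* did not pass the test, with 0.36 (0.37, adjusted p = 0.922) in DMSO and -0.31 (0.51, adjusted p = 1.00) with Senexin B by edgeR.

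**Figure D3:**
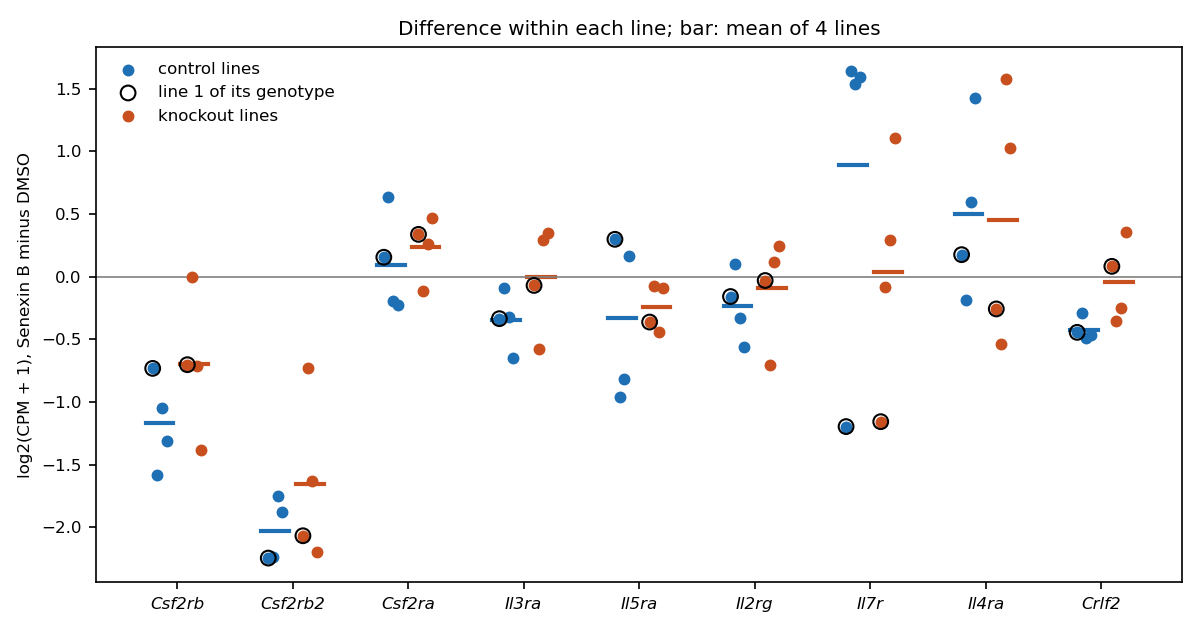
Difference of log2(CPM + 1) between Senexin B and DMSO within each of the 4 control (blue) and 4 knockout (orange) lines for the 9 detected receptor genes; short bars are means of 4 lines and black rings mark line 1 of each genotype. *Csf2rb2* lies below 0 in all 8 lines, whereas the rings of *Il7r* lie near -1.2 and the other control lines near 1.6.

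*Il4ra*, the IL-4 receptor alpha chain, also varied by line. In the control lines it was at 32.6, 39.3, 26.4 and 20.7 CPM in DMSO and at 36.9, 34.5, 40.4 and 57.1 CPM with Senexin B. In the knockout lines it was at 34.7, 12.03, 33.4 and 68.9 CPM in DMSO and at 28.8, 7.98, 101 and 142 CPM with the inhibitor. Knockout lines 3 and 4 were higher and knockout lines 1 and 2 lower with the inhibitor, as they were for *Il7r*. The log2 fold change in the knockout lines was 0.91 (standard error 0.84) without and 0.50 (0.35) with the line as a block, and 0.80 (0.35) with the block and without line 1. *Gm44876*, on the opposite strand, shares exonic bases with *Il4ra*, and no strand setting is given in the file headers. By genotype the gene did not pass the test (0.33, standard error 0.46, adjusted p = 0.946 in DMSO by edgeR).

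*Crlf2* had the smallest unadjusted p of the receptor genes between the genotypes. In DMSO it was at 22.3, 35.2, 28.6 and 37.7 CPM in the control lines and at 19.6, 14.5, 16.1 and 22.6 CPM in the knockout lines. The knockout lines were lower apart from line 4, which lay just above control line 1. The log2 fold change was -0.76 (standard error 0.22), with an unadjusted p of 0.00712 and an adjusted p of 0.897 by edgeR over 13174 genes. With Senexin B it was -0.30 (0.34, adjusted p = 1.00). Within the control lines *Crlf2* was lower with Senexin B in all 4, by -0.42 ± 0.09 on the log2(CPM + 1) scale, beside 9.12% of 14164 genes that were lower in all of them. In the knockout lines it was lower in 2 and higher in 2.

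**Figure D4:**
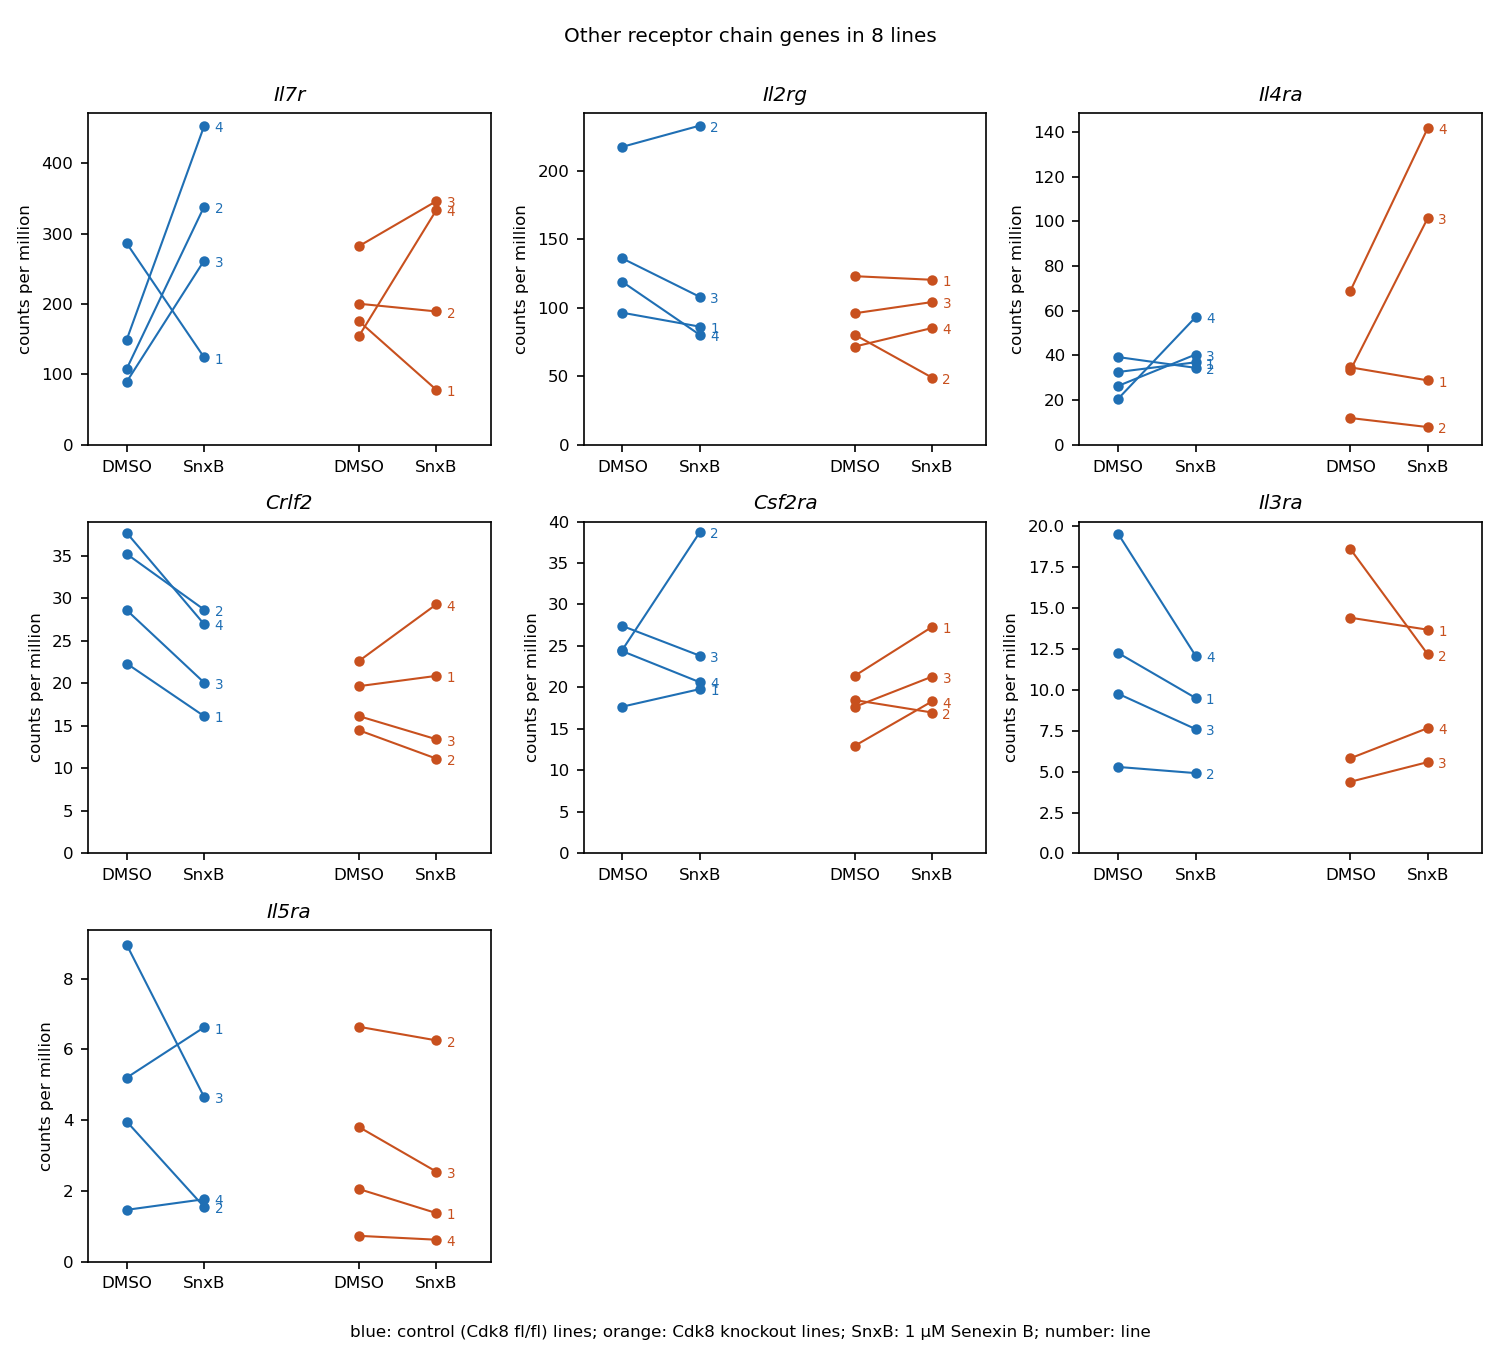
CPM on linear axes of the 7 other detected receptor genes in DMSO and in 1 µM Senexin B (SnxB); each segment joins the libraries of 1 line, blue for control and orange for knockout lines, with the line number at its right end. *Il7r* and *Il4ra* show lines that cross, and *Crlf2* and *Il3ra* slope down in all 4 control lines, beside 9.12% of all genes.

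Over the 9 tested receptor genes, 0 were called between the genotypes in DMSO (edgeR, 0.00759% of 13174 genes), with 1, *Crlf2*, at an unadjusted p under 0.05 (5.32% of all genes) and 0 called by DESeq2. With Senexin B in both genotypes 0 were called (0% of 13010 genes), with 1, *Csf2rb*, at an unadjusted p under 0.05 (1.55% of all genes) and 0 called by DESeq2. The median log2 fold change of the 9 genes was -0.11 in DMSO, against 0.0017 over all genes, and -0.29 with Senexin B, against -0.0036. In 0 of the 9 genes were the lines of the genotypes free of overlap in DMSO or with Senexin B, beside 3.14% and 0.999% of all genes. The interaction shares its libraries with the Senexin B contrast that the choice of genes used, so its counts are a description with nothing read from them. For it 0 of the 9 were called, as were 0% of all 14164 genes, with 0 of the 9 at an unadjusted p under 0.05 (0.473% of all genes) and 0 called by DESeq2. No share of all genes is given for the DESeq2 counts of these comparisons, so nothing is read from them.

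The wider pathway was read from a list of 61 ligands, other receptor chains, Janus kinases, STATs, adaptors, feedback inhibitors, targets and transcription factors, of which 42 to 45 were tested. Between the genotypes 0 were called by edgeR, beside 0.00759% of all genes in DMSO and 0% with Senexin B. At an unadjusted p under 0.05 there were 4 in DMSO and 0 with Senexin B, beside 5.32% and 1.55% of all genes. DESeq2 called 0, with no share of all genes given for it. The smallest unadjusted p in DMSO belonged to *Sos1* (-0.49, standard error 0.16), *Bcl6* (-0.92, 0.36) and *Osm* (-0.62, 0.27) in the lower direction and to *Il15ra* (0.57, 0.21), *Ccnd3* (0.45, 0.24) and *Ebf1* (0.26, 0.17) in the higher. With Senexin B they belonged to *Il15ra* (0.43, 0.21), *Kit* (3.91, 2.34) and *Cish* (0.64, 0.50) and to *Bcl2l1* (-0.74, 0.53), *Bcl6* (-0.56, 0.42) and *Ccnd3* (-0.47, 0.42). The ligands on the list were low or at 0. *Il3*, *Il9*, *Il13* and *Il21* had 0 CPM in all libraries, *Csf2*, *Il2* and *Il5* reached at most 0.0736 CPM, *Il7* reached 1.88 and *Tslp* 0.374 CPM. *Il4* was detected in every library, at 0.0736 to 1.21 CPM, and *Il15* reached 0.375 CPM.

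With Senexin B, 0 pathway genes were called without the block in the control lines, the knockout lines or over all lines, as were 0% of all genes. At an unadjusted p under 0.05 there were 3, 1 and 5, beside 3.8%, 1.83% and 4.86% of all genes. DESeq2 called 0, beside 0.102%, 0% and 0.097% of all genes. With the line as a block 1 of 45 was called over all lines, the receptor tyrosine kinase *Flt3* of early progenitors (-1.63, standard error 0.37, adjusted p = 0.0399 by edgeR), beside 0.946% of all genes. *Flt3* was low, at 0 to 5.99 CPM, and was lower in 7 of the 8 lines. *Bcl6* (0.95, 0.15, adjusted p = 0.00919), a repressor that STAT5 holds down in pre-B cells, and *Stat3* (-0.47, 0.08, adjusted p = 0.0129) had adjusted p-values under 0.05 with folds under 2, in 8 of 8 lines each. So did *Sh2b3* (-0.47, 0.09, adjusted p = 0.0197), which encodes the adaptor LNK, in 8 of 8 lines. On the same list *Grb2* and *Mcl1* were also lower in 8 of 8 lines, beside 2.59% of all genes that were lower in every line. No share of all genes is given for an adjusted p under 0.05 at any fold. *Il2ra*, the alpha chain that joins the common gamma chain in the IL-2 receptor, had 0.91 (0.14, adjusted p = 0.0484) in the control lines and 0.69 (0.19, adjusted p = 0.0861) over all lines, all by edgeR with the block. It was higher with the inhibitor in 7 of the 8 lines and lower in knockout line 1, at 8.61 CPM in DMSO and 4.195 CPM with Senexin B. Without line 1 the value over all lines was 0.87 (0.093).

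*Cish* and *Pim1* are known targets of STAT5, named here because they were called without line 1. The feedback inhibitors and targets of the pathway list did not share a direction, and STAT5 activity was not measured. Over the 8 lines *Cish* was lower with Senexin B in 5 and *Pim1* in 6. *Socs2* was lower in 4, *Ccnd2* in 3, *Bcl2l1* in 5, *Bcl2* in 2, *Pim2* in 1 and *Mcl1* in 8. *Cish*, a feedback inhibitor of these receptors, was at 18.3, 54.7, 48.6 and 62.0 CPM in control lines 1 to 4 in DMSO and at 48.7, 20.3, 19.9 and 18.5 CPM with Senexin B. Line 1 was higher and lines 2, 3 and 4 were lower with the inhibitor. The kinase gene *Pim1* was at 313, 320, 308 and 300 CPM in DMSO and at 330, 170, 157 and 117 CPM with Senexin B in the same lines. In knockout lines 1 to 4 *Cish* went from 48.6 to 67.1, from 27.3 to 41.05, from 57.5 to 45.7 and from 30.04 to 13.4 CPM, so that lines 1 and 2 were higher and lines 3 and 4 lower. *Pim1* went from 274 to 322, from 340 to 311, from 294 to 247 and from 156 to 93.6 CPM, higher in knockout line 1 and lower in the other three. With the block and without line 1, 6 pathway genes were called in the control lines, *Cish* (-1.49, standard error 0.16), *Pim1* (-1.08, 0.16), the adaptor *Gab2* (-1.004, 0.16) and *Flt3* (-1.92, 0.36) lower and *Ccnd3* (1.06, 0.23) and *Kit* (1.93, 0.40) higher, beside 4.15% of all genes. *Kit* was at 0 in control line 4 in both conditions.

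Genes around the common beta chain pair were examined to describe whether the difference extended beyond it. Within 300 kb of the pair lay 21 genes, counting the pair, of which 10 were tested over all lines. With the line as a block the 8 other genes had log2 fold changes with Senexin B between -0.44 and 0.01 over all lines. The nearest, *Ncf4*, a subunit gene of the phagocyte NADPH oxidase, had -0.37 (standard error 0.13, adjusted p = 0.156), and the farthest, *Cyth4*, had -0.44 (0.13, adjusted p = 0.0953), both by edgeR. *Ift27* (-0.17, 0.10), *Tst* (0.01, 0.20), *Mpst* (-0.11, 0.08), *Kctd17* (-0.24, 0.19), *C1qtnf6* (-0.22, 0.23) and *Rac2* (-0.07, 0.13) were closer to 0. *C1qtnf6* was at 40.7 CPM in DMSO and 21.1 CPM with Senexin B in knockout line 1, against 0.573 to 2.17 CPM in the 14 other libraries. *Il2rb*, also within the window, was not detected.

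**Figure D5:**
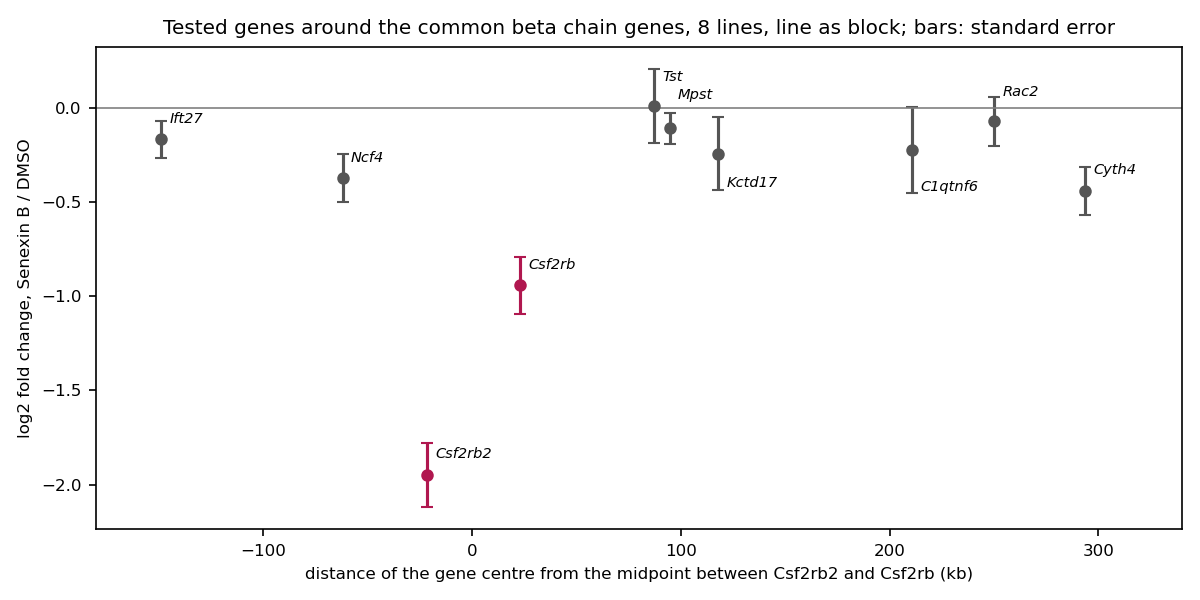
Log2 fold change of Senexin B over DMSO in 8 lines, with the line as a block, for the 10 tested genes within 300 kb of *Csf2rb2* and *Csf2rb*, against the distance of the centre of each gene from the midpoint between the pair in kb; bars are standard errors. *Csf2rb2* and *Csf2rb* (red) lie at -1.95 and -0.94, and the 8 other genes between -0.44 and 0.01.

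The genes most like each receptor gene were taken from 12535 genes by Pearson correlation of log2(CPM + 1) over the 16 libraries, which share lines in pairs and share the treatment. The closest to *Csf2rb* was *Csf2rb2* (r = 0.95), with which it has sequence in common, followed by *Gbp7* (0.81), *Ube2cbp* (0.77), *Dpp9* (0.76) and *Commd8* (0.75). For *Csf2rb2* the next were *Gbp7* (0.82), *Commd8* (0.82), *Mlxip* (0.78) and *Ube2cbp* (0.77), so *Gbp7*, *Commd8* and *Ube2cbp* were common to both. The closest to *Il7r* were *Efhd1* (0.89), *Tifa* (0.88), *Cd84* (0.88), *Knstrn* (0.88) and *Ddx11* (0.87). Within the receptor genes, *Csf2rb* and *Csf2rb2* had r of -0.22 and -0.05 with *Il7r*.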

How the data were processed

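RNA of 16 libraries was sequenced by the authors as 50-base single reads from a poly(A) library kit. Per the file headers and labels, reads were trimmed with Trimmomatic, aligned to GRCm38 with STAR and counted per gene by the authors with featureCounts 1.5.1 against GENCODE M13; the deposited values are raw counts, and the headers show neither a strand setting nor counting of reads with several positions. Libraries held 13145876 to 18349425 counts, and intervals from counts cover counting error only.

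Genes were tested with edgeR 4.0.16 (quasi-likelihood, TMM factors, filterByExpr, Benjamini-Hochberg adjustment over all genes tested) and called at an adjusted p under 0.05 and a fold above 2, the limits of the study's methods. CPM used TMM factors over all 16 libraries and TPM the exonic length; the log scale used a pseudocount of 1. Genotype comparisons used 8 libraries of 1 condition, Senexin B comparisons the libraries of a genotype or all 16. Alternatives were DESeq2 1.42.0, RLE factors, no filter, each library left out, 1 fit of all 16 libraries, the line as a block and, added after seeing the data, line 1 left out. The fits were tested on simulated data. The study names its lines as individually derived, so replicates are lines, each sequenced once per condition.

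Within a genotype a number marks 1 line in both conditions, and the deviations of such pairs from the group mean correlated over 14164 genes (mean r 0.70 in the control and 0.83 in the knockout lines, lowest 0.56, against -0.23 and -0.27 between different lines). Between genotypes, libraries of the same number had a mean r of 0.0097 in DMSO (highest 0.26). With Senexin B it was 0.12 (highest 0.43), against -0.041 for different numbers. Whether libraries of a number were handled together is not given in the labels and was not tested. No pair of the 120 pairs of libraries agreed within counting noise. The receptor genes, the pathway and marker lists and the tests were chosen with earlier results of these data known. Named were all receptor genes, pathway genes called in a comparison or, where there was none, 3 per direction ranked by unadjusted p, tested genes within 300 kb of the common beta chain pair, and the 5 genes of highest correlation for *Csf2rb*, *Csf2rb2* and *Il7r*; the pathway genes called without line 1 and *Il2ra*, *Stat3*, *Bcl6* and *Sh2b3* were named after their values were seen. Promoter sequences were from RefSeq (GRCm38.p6), and protein sequences were not used here.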

Additional observations from a re-analysis of the deposited data

Results flagged for a closer look

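In 40 groups of 4 lines the most outlying line was compared with the others by Dixon's test, for the CPM of each receptor gene with at least 20 counts in the group and for the share of *Csf2rb2* in the counts of both beta chain genes. One share stood out. In knockout line 3 in DMSO *Csf2rb2* supplied 24.2% of the counts of the pair, while knockout lines 1, 2 and 4 were at 19.2% each, and the gap was 0.994 of the whole range. Chance marks about 1 in 20 such groups.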

How the results depend on the processing

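Under the alternatives the counts of called genes stayed within 1.5 times of the values reported, except those with Senexin B. With the replicate block, which pairs the libraries of a line, 2 receptor genes were called in the control lines and 1 receptor and 1 pathway gene over all lines, against 0 without it; the block changed no other call. DESeq2 called 2 receptor genes in the control lines (0.102% of all genes) and 1 over all lines (0.097%), and the control lines gave 1 without the filter on low counts (0.011%). With the block and without line 1, 3 receptor and 6 pathway genes were called in the control lines (4.15% of all genes) and 3 and 3 over all lines (2.57%). Leaving out each library in turn gave 0 to 1 receptor genes over all lines, the 1 being without knockout line 1 in Senexin B. Of 930 recomputed log2 fold changes of receptor genes, 43 had the opposite sign to the value reported, 9 of 256 between genotypes, 19 of 474 with Senexin B and 15 of 200 for the interaction. With Senexin B and for the interaction 22 values, some of them of opposite sign, moved by more than 1 SD between lines. The cause was not tested.

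Between genotypes, leaving out 1 library gave ranges of -0.056 to 0.28 (*Csf2rb*), -0.52 to 0.24 (*Il3ra*) and -0.16 to 0.61 (*Il4ra*) in DMSO, and of -0.0012 to 0.41 (*Il3ra*) and -1.26 to 0.011 (*Il5ra*) with Senexin B; *Il5ra* was at 0.24 there without line 1 of both genotypes. With Senexin B, *Csf2ra*, *Il2rg*, *Il3ra*, *Il5ra*, *Il7r* and *Crlf2* had ranges that crossed 0 in 1 genotype or more, among them -0.63 to 0.12 for *Il2rg* and -0.86 to 0.060 for *Il5ra* in the control lines, and -1.12 to 0.30 for *Il5ra*, -0.40 to 0.25 for *Il3ra*, -0.27 to 0.22 for *Crlf2* and -0.019 to 0.51 for *Il7r* in the knockout lines, and the widest of the interaction was -0.70 to 0.71 for *Il5ra*. The difference in the *Csf2rb2* share between genotypes in DMSO ranged from 2.07 to 4.32 percentage points with 1 line left out (lowest exact p 0.0571), and was 1.80 points with Senexin B (exact p = 0.343). Counts of *Il5ra* under 25 in line 4 of both genotypes, and with Senexin B in control line 2 and knockout line 1, limit its estimates.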
